A study of Mus musculus with 8 samples.

Results

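Collagens are the main structural proteins of the extracellular matrix, and the cochlea holds several kinds of them in its bony wall, its acellular gels and its basement membranes. Collagen genes were taken here as the listed genes whose symbol has the form Col, a type number, the letter a and a chain number, which gave 44 of the 47628 entries that name a gene. By collagen class, 2 were the bone fibril chains of type I, 6 were the tectorial membrane and cartilage chains of types II, IX and XI, 6 were the basement membrane chains of type IV, and 30 were chains of other types.

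RNA was sequenced at 21 days of age from the cochleae of 8 mice, 4 of them WT, with the animal numbers 4, 5, 6 and 8, and 4 of them Opa1+/-. The latter had the animal numbers 2 and 7 and a pair of 3-digit numbers, and these last mice are called A (the lower number) and B (the higher number) here. Opa1 encodes a GTPase of the inner mitochondrial membrane, and the Opa1+/- mice carried 1 knock-in copy with the delTTAG deletion in every cell, on the mixed C57BL/6J and 129Sv/Pas background that their WT littermates shared. None of the mice was treated, and the sex of each mouse was not given in the sources used here. The comparison of the genotypes asks whether matrix genes differ at an age ahead of the hearing loss for which these mice are studied.

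A collagen molecule is a trimer of chains wound around each other, and each chain needs the smallest amino acid, glycine, at each position that faces the centre, 1 in 3, to fit into the helix. Fibrillar collagens (types I, II, III, V and XI) pack side by side into fibrils, type IX decorates fibrils of type II, and type IV forms sheets in basement membranes. In the cochlea, types II, IX and XI are known from the tectorial membrane and the spiral ligament, and the basement membranes around its vessels hold mainly the Col4a1 and Col4a2 chains, with the Col4a3 to Col4a6 chains known from the basement membranes of the basilar membrane, spiral limbus and spiral ligament. Loss of the Col4a3, Col4a4 or Col4a5 chain causes Alport syndrome, which includes hearing loss.

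The glycine repeat can be read in the coding sequences, where type IV differs from the fibrillar types. Short stretches of 3 genes from the GRCm38 reference (GENCODE vM21 annotation) show the difference, with the glycine codons of the repeat in capitals. The Col1a1 stretch lies in coding exon sequence on chromosome 11 from 94939904 to 94939957, the Col4a1 stretch on chromosome 8 from 11235165 to 11235227 on the minus strand, and the Col4a3 stretch on chromosome 1 from 82668952 to 82669014.
Col1a1: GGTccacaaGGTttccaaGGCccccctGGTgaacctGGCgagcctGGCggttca
Col4a1: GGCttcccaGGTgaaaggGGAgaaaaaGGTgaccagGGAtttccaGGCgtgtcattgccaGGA
Col4a3: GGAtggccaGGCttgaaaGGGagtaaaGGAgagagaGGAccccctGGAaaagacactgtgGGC

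In the Col1a1 stretch the capital codons follow each other at an even spacing of 3 codons, and the lower case ggt near its end is a glycine codon outside that spacing. In both type IV stretches the last interval is longer, which ends the run. Counted over whole coding sequences, the 9 genes of types I, II, III, V and XI had a longest unbroken run of 337 to 344 triplets, each triplet a glycine codon and the next 2 codons. The 6 type IV genes reached only 39 to 66 triplets in a row, and they carried 23 to 27 separate runs of at least 3 triplets each against 2 to 5 in those 9 genes. Type IV was still mostly repeat, with 426 to 444 triplets in all its runs together. The 3 type IX genes each had a longest run of 113 triplets, and the vascular and cartilage network chains of types VIII and X had 59 or 60.

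The exons differed as well. Of the inner coding exons of the fibrillar genes of types I, II, III, V and XI, 46.9% were exactly 54 bases long, which encodes 6 triplets, and 82.7% had a length divisible by 9. Of the 284 inner coding exons of the type IV genes, 12 were 54 bases long and 47.2% had a length divisible by 9. These figures describe the reference annotation and were not compared with the counts.

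**Figure D1:**
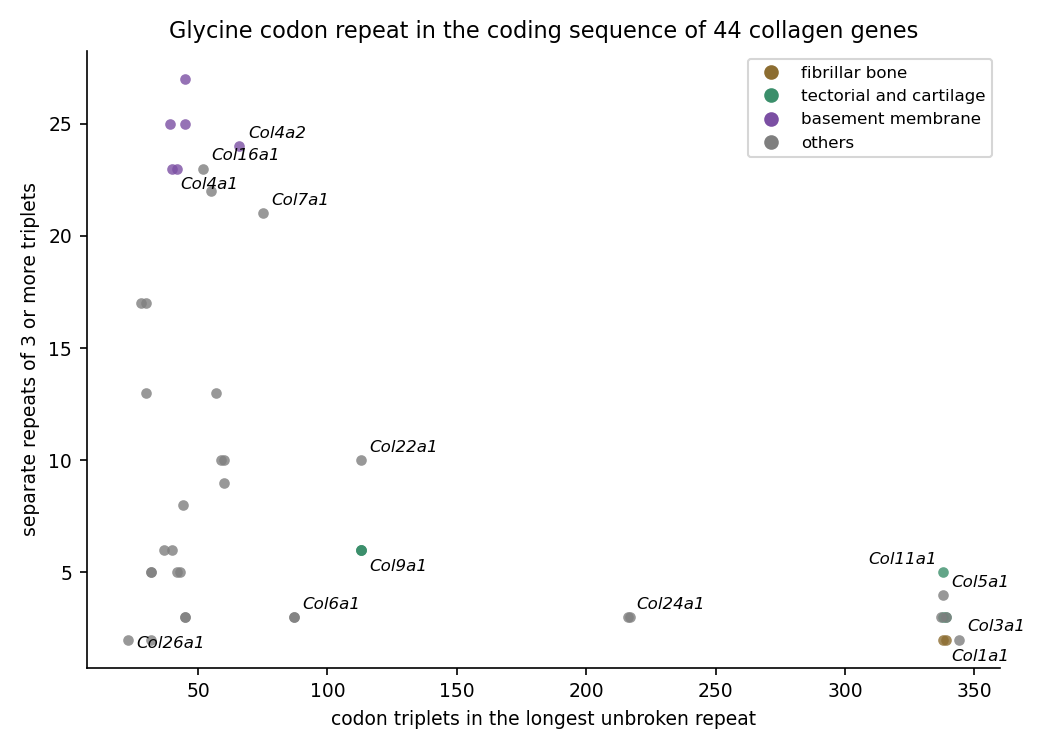
Each of the 44 collagen genes is 1 point, placed by the number of codon triplets in its longest unbroken glycine repeat (horizontal axis) and its number of separate repeats of 3 or more triplets (vertical axis), coloured by class. The fibrillar genes of types I, II, III, V and XI lie between 337 and 344 at the right, and the 6 basement membrane genes lie between 39 and 66 with 23 to 27 repeats.

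The type IV genes stand in 3 head-to-head pairs, whose transcripts start next to each other on opposite strands. Col4a1 (minus strand) and Col4a2 (plus strand) overlap at their starts on chromosome 8 by 22 bases, from 11312805 to 11312826. Col4a4 (minus) and Col4a3 (plus) start on chromosome 1 with 71 bases between them, from 82586850 to 82586920. Col4a6 and Col4a5 start on chromosome X with 1308 bases between them. The short stretches of the first 2 pairs are given to show how close the starts of partner chains lie, with a GGGCGG match (a GC box) in capitals, read on the plus strand.
Col4a1 and Col4a2, shared bases: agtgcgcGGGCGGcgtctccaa
Col4a3 and Col4a4, bases between: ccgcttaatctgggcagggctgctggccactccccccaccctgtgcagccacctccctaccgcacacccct

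The shared bases of Col4a1 and Col4a2 held 1 GGGCGG match, and 4.09% of the 32851 RefSeq promoter entries of GRCm38 hold one in the same 22 bases after the start, on either strand. The bases between Col4a3 and Col4a4 held no GGGCGG, no CCAAT and no TATAAA on either strand. Over the 71 bases before the start, 20.7% of the promoter entries hold GGGCGG, 13.3% hold CCAAT and 4.41% hold TATAAA. The matches are a description of these letters only.

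The libraries held 15978051 to 20828030 counts on named genes. Opa1 was 119.7 ± 6.09 CPM (the count scaled to a common library size with TMM factors) in WT and 65.6 ± 4.42 in Opa1+/- cochleae (SD, n = 4 each), a log2 fold change of -0.87 ± 0.068 (SE), with an adjusted p of 0.00515 by edgeR (quasi-likelihood test, Benjamini-Hochberg), so every library matched its label. Opa1+/- mouse B had the lowest level of the 8 mice in 24 of the 44 collagen genes. WT mouse 6 had the highest level in 14 and Opa1+/- mouse 2 in 13. Blood and muscle transcripts varied widely between mice. The summed erythroid markers ran from 7709 to 24916 CPM, highest in mouse B, and were 12465 ± 6175 in WT and 18359 ± 4626 in Opa1+/- mice (SD, n = 4 each), with a positive log2 fold change for all 5 genes (median 0.58). The summed skeletal muscle markers ran from 13.8 to 1794 CPM, lowest in mouse B, with a negative log2 fold change for all 6 genes (median -0.77). None of these 11 genes had an unadjusted p under 0.05, and the sums overlapped between the genotypes. The 7 neutrophil and marrow markers summed to 398.1 to 1304 CPM, highest in WT mouse 4. Their part in the collagen values was not tested. In whole cochleae, fewer cells of a type and less RNA per cell cannot be told apart.

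Collagen transcripts together took 0.182 to 0.289% of the counts of a library. Type I supplied 46.7% of the collagen CPM, the tectorial and cartilage chains 14.04%, type IV 6.46% and the other chains 32.8%. Per kb of exon, the order of levels over all 8 mice began with Col1a1 at 109.1 CPM per kb, Col1a2 at 36.3, Col11a2 at 23.7, Col6a1 at 14.3 and Col3a1 at 13.5. The bone markers (10 genes, among them Spp1, Bglap and Dmp1) were detected in every library and summed to 1844 to 2533 CPM. Most of that sum came from Spp1 alone, with means of 1629 CPM in WT and 1488 in Opa1+/- mice. The cochlear epithelium and tectorial membrane markers (8 genes, among them Tecta and Otoa) were detected in every library, and none was at 0.

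Among the basement membrane chains, Col4a1 (9.82 CPM per kb) and Col4a2 (8.56) stood far above Col4a5 (1.79), Col4a4 (0.889), Col4a3 (0.632) and Col4a6 (0.456). The lowest collagens were Col10a1, the chain of hypertrophic cartilage, at 0.196 CPM per kb, and Col6a4 at 0.0618. The ranges over the 8 mice overlapped for 41 of the 43 neighbouring pairs in the order, all but Col1a1 over Col1a2 and Col4a5 over Col4a4. Within mice, the higher gene lay above its neighbour in all 8 mice for 7 of the 43 pairs, which besides these 2 were Col1a2 over Col11a2, Col11a2 over Col6a1, Col9a2 over Col4a1, Col9a3 over Col27a1 and Col10a1 over Col6a4. With the longest transcript as length, Col1a2 stood at 84.3, Col2a1 at 13.3 and Col3a1 at 23.8 CPM per kb, and Col3a1 then stood above Col6a1. The level of 9 of the 44 genes moved by over 1.5 times with this length, the most for Col26a1, from 0.342 to 1.01 CPM per kb, so levels per length depend on the gene model.

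**Figure D2:**
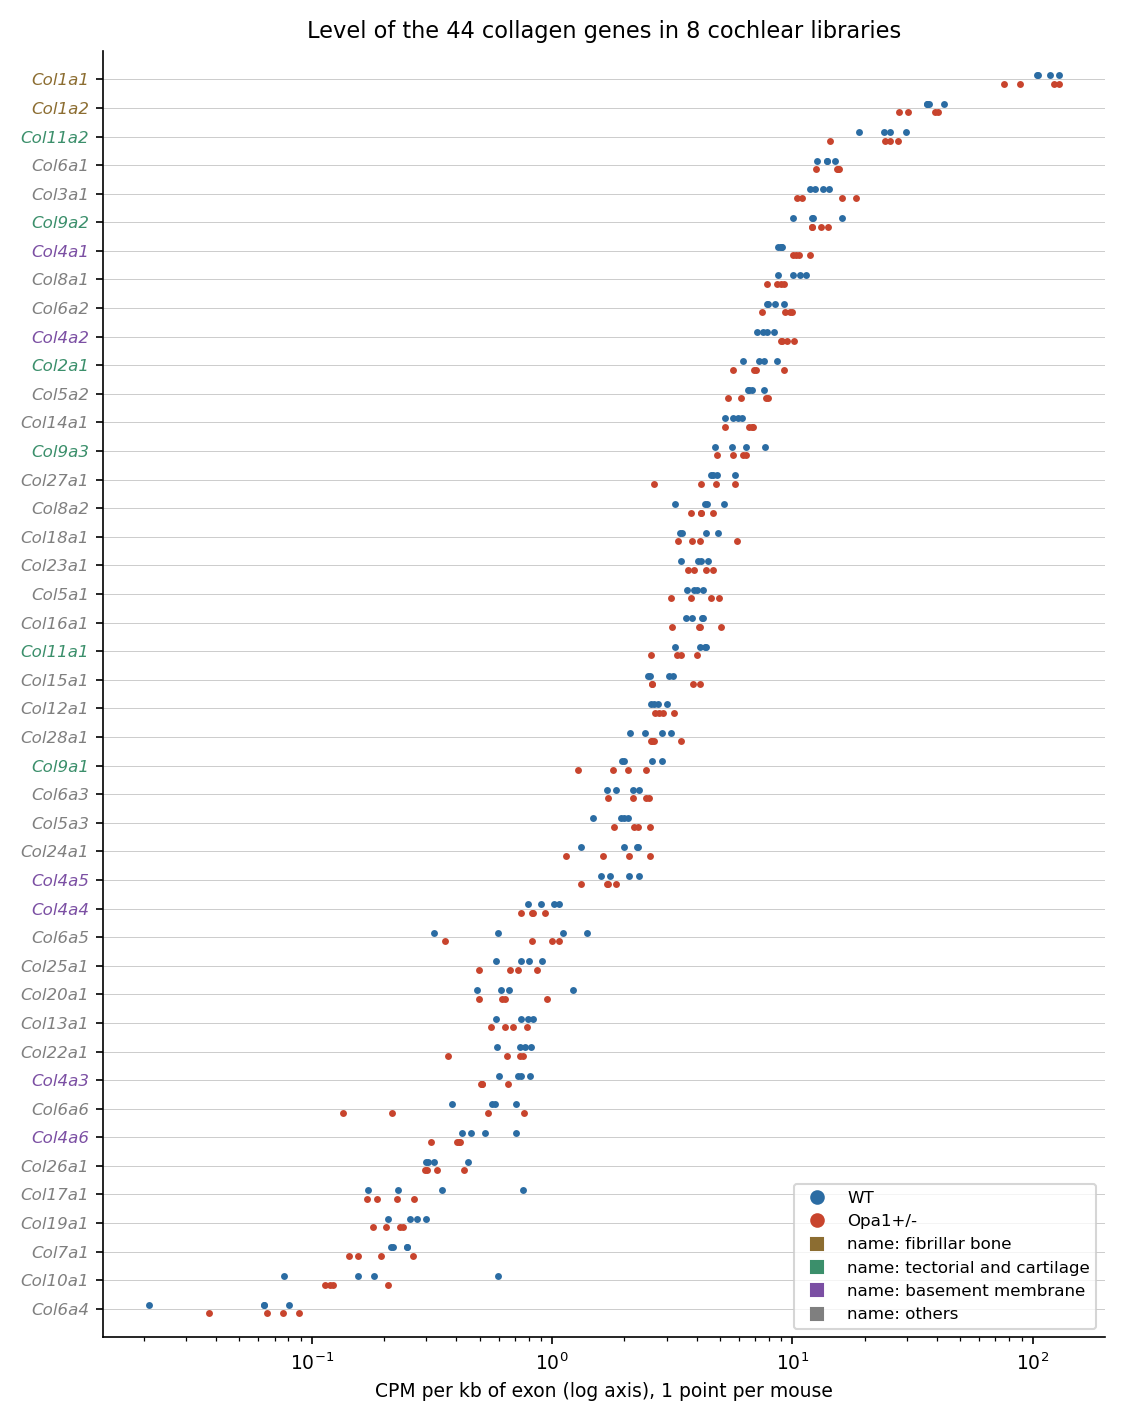
Each row is a collagen gene, ordered by its mean level over the 8 mice, and each point is 1 mouse in CPM per kb of exon on a log axis, WT in blue and Opa1+/- in red, with gene names coloured by class. Col1a1 leads at 109.1 CPM per kb, and the red and blue points lie apart only for Col4a1, Col4a2 and Col4a6.

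Between the genotypes, no collagen gene passed an adjusted p of 0.05. Of the 44 genes 43 were tested, since Col6a4, with 3 to 15 counts per library, was under the minimum mean count of 10. The smallest adjusted p was 0.722 by edgeR's quasi-likelihood test after Benjamini-Hochberg adjustment over 19366 genes, and 0.168 by the DESeq2 Wald test, for Col4a1. Of all genes tested, 0.0258% passed by edgeR and 0.129% by DESeq2. At an unadjusted p under 0.05 by edgeR, 2 collagens lay higher in Opa1+/- mice (Col4a1 and Col4a2) and 3 lower (Col4a3, Col8a1 and Col4a6), against 3.51% higher and 3.22% lower among all genes tested. So 4 of these 5 genes were type IV chains. The log2 fold change was positive for 16 of the 43 genes and negative for 27, against 49.9% negative among all genes tested.

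**Figure D3:**
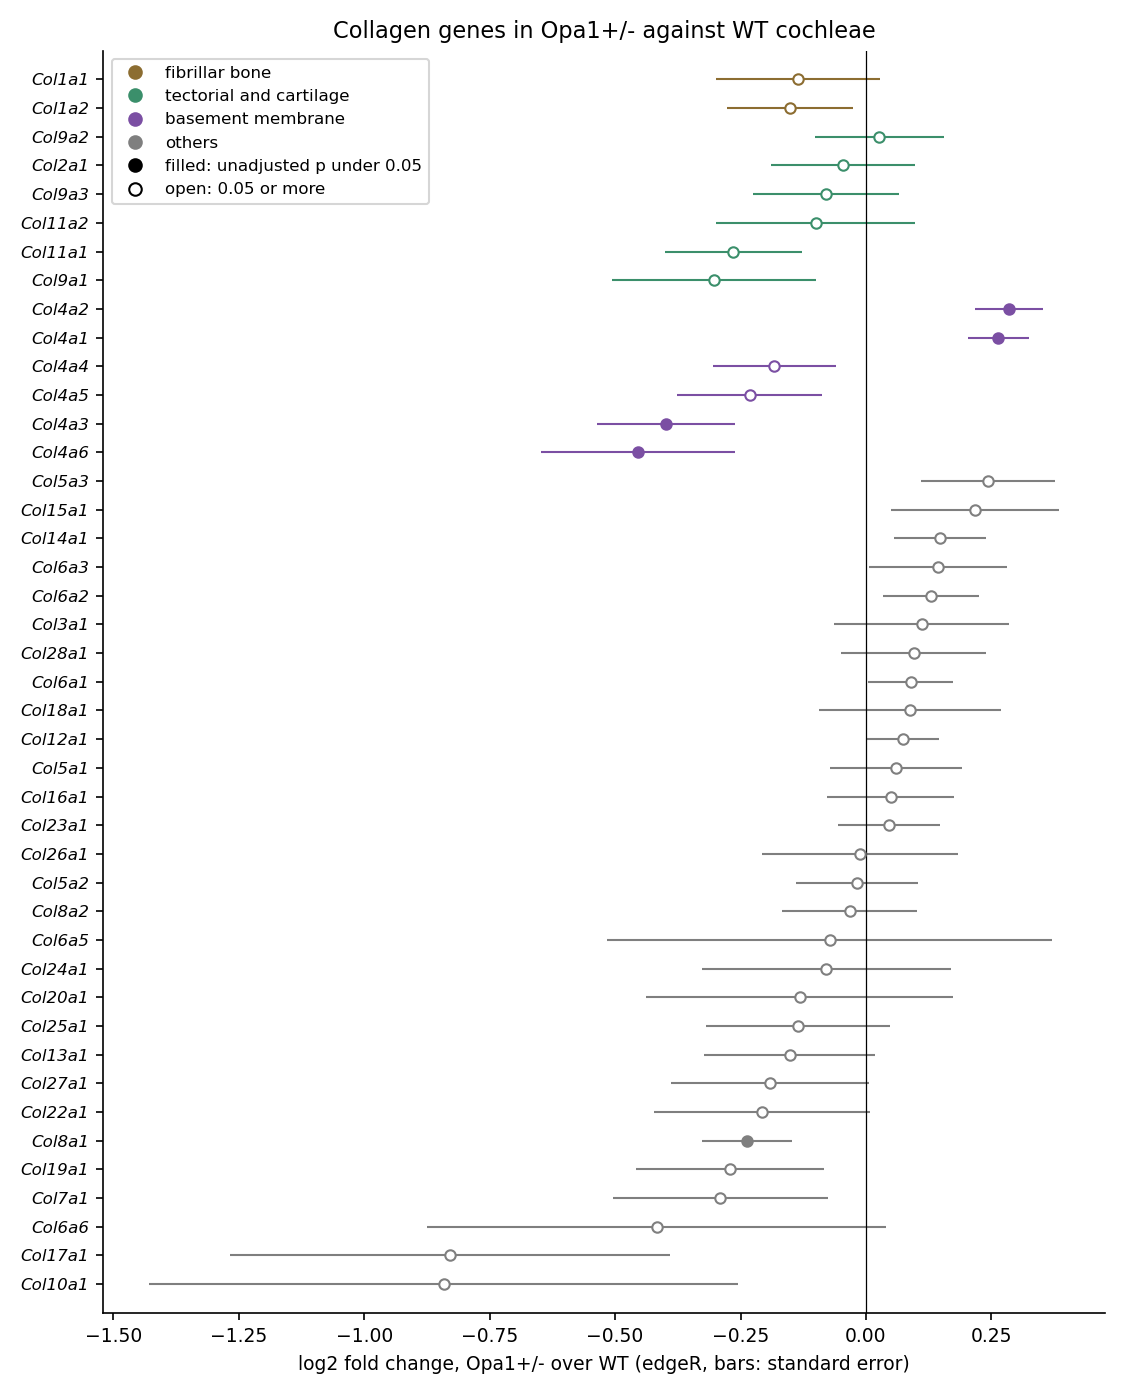
The log2 fold change of Opa1+/- over WT (horizontal axis, edgeR) with its standard error is drawn for the 43 collagen genes tested, grouped and coloured by class, with filled points for an unadjusted p under 0.05. Col4a2 and Col4a1 stand at 0.28 and 0.26, while the other 4 basement membrane chains lie between -0.45 and -0.18.

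Col4a1 and Col4a2 encode the chains of the basement membrane network found around vessels and in most tissues, 2 Col4a1 chains to each Col4a2 chain. Col4a1 was at 67.0, 67.5, 67.0 and 65.1 CPM in WT mice 4, 5, 6 and 8, and at 88.0, 74.7, 77.6 and 79.6 in Opa1+/- mice 2, 7, A and B. The lowest Opa1+/- value was above the highest WT value, and the 4 WT values lay close together. The means were 66.6 ± 1.06 and 80.0 ± 5.69 CPM (SD, n = 4 each), a ratio of 1.20, and the log2 fold change was 0.26 ± 0.061 (SE), with an edgeR p of 0.0017 and an adjusted p of 0.722.

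Col4a2 showed the same separation. It was at 49.8, 52.1, 55.4 and 47.1 CPM in the WT mice and at 67.3, 59.1, 62.7 and 59.9 in the Opa1+/- mice, in the same order of animals. The groups did not overlap, and the ratio of the means was 1.22, with a log2 fold change of 0.28 ± 0.068 (SE), an edgeR p of 0.00207 and an adjusted p of 0.722. Among all genes tested, 1.98% had no overlap between the groups with the Opa1+/- mice higher and 2.33% with them lower. Both genes kept an edgeR p under 0.05 in each of the 8 fits that left out 1 mouse, where their log2 fold changes ran from 0.22 to 0.30 for Col4a1 and from 0.24 to 0.33 for Col4a2. The 2 genes share 22 bases on opposite strands, and the use of strand in the counting was not stated.

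Col4a3, Col4a4 and Col4a5 together form a second basement membrane network, and Col4a6 joins Col4a5 in a further one. Col4a3 was at 5.99, 7.42, 8.07 and 7.20 CPM in the WT mice and at 6.50, 5.06, 5.07 and 5.11 in the Opa1+/- mice. Its groups overlapped, because Opa1+/- mouse 2 lay above WT mouse 4, and the other 3 Opa1+/- mice lay below all WT mice. Its log2 fold change was -0.40 ± 0.138 (SE), a ratio of means of 0.758, with an edgeR p of 0.0167 and an adjusted p of 0.722. The p was under 0.05 in each of the 8 fits with 1 mouse left out, and not with mice A and B left out together, when no collagen had a p under 0.05 in the lower direction.

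Col4a6, the least abundant type IV chain, was at 3.65, 3.37, 4.18 and 5.63 CPM in the WT mice and at 3.31, 3.26, 3.22 and 2.49 in the Opa1+/- mice. The groups did not overlap, but the gap between WT mouse 5 and Opa1+/- mouse 2 was narrow and counts were only 39 to 115 per library. This gave a log2 fold change of -0.45 ± 0.193 (SE), with an edgeR p of 0.0415 and an adjusted p of 0.728, and the p stayed under 0.05 in only 2 of 8 fits with 1 mouse left out, those without WT mouse 4 or 5. Without WT mouse 8, the highest of the WT mice, the log2 fold change was -0.28, with an edgeR p of 0.138. By DESeq2 its unadjusted p was 0.0509.

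The partners of these chains, Col4a4 and Col4a5, did not reach an unadjusted p of 0.05. Col4a4 was at 8.45 to 11.4 CPM in WT and 7.85 to 9.93 in Opa1+/- mice, with a log2 fold change of -0.18 ± 0.122 (SE). Col4a5 was at 10.7 to 15.5 CPM in WT and 8.87 to 12.4 in Opa1+/- mice, with a log2 fold change of -0.23 ± 0.145 (SE). Without WT mouse 6 the values were -0.12 for Col4a4 and -0.14 for Col4a5, and without Opa1+/- mouse B that of Col4a5 was also -0.14. Without WT mouse 4 they were -0.25 for Col4a4 and -0.31 for Col4a5. The groups overlapped for both chains.

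**Figure D4:**
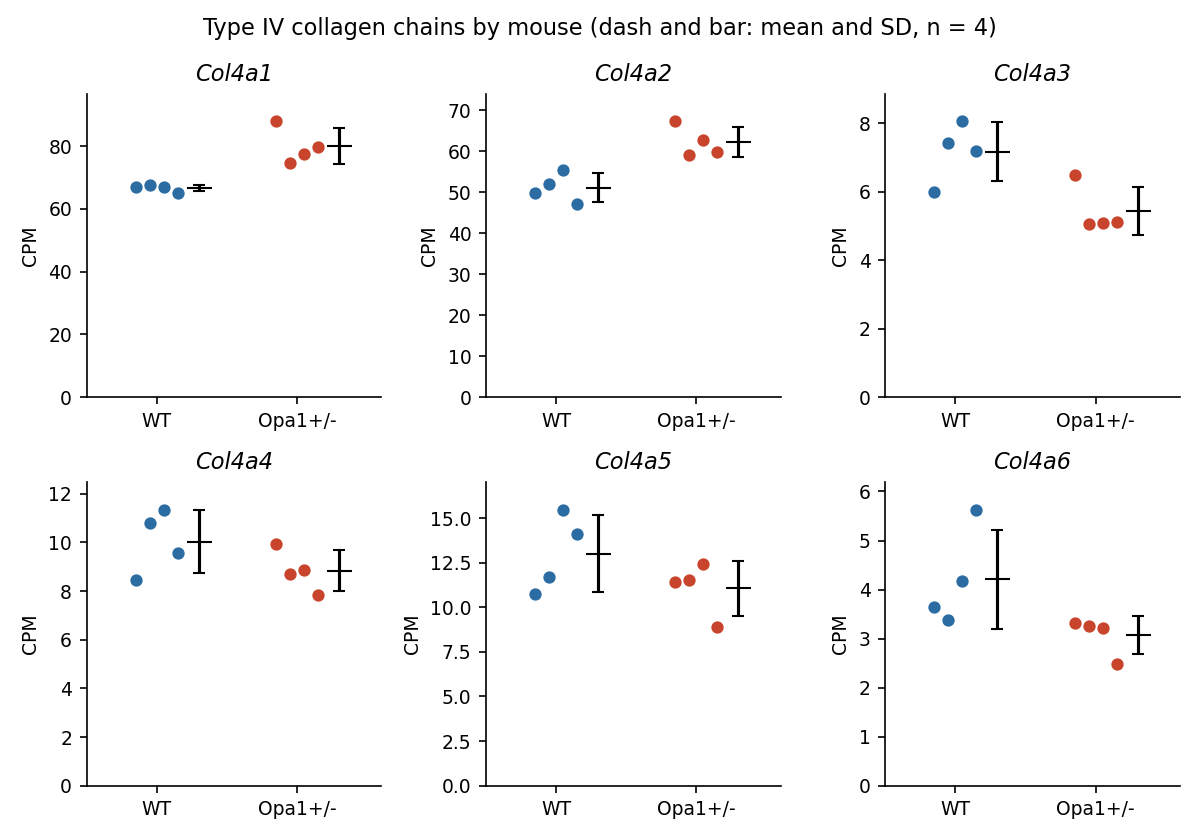
Each panel gives CPM per mouse for a type IV chain, WT in blue and Opa1+/- in red, with the mean and SD (n = 4) beside the points and the vertical axis starting at 0. Col4a1 and Col4a2 lie higher in every Opa1+/- mouse, Col4a6 lies lower in every one, and the groups overlap in the other 3 panels.

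The summed level of the type IV chains followed its most abundant pair, with 152.1 ± 6.87 CPM in WT and 170.6 ± 11.1 in Opa1+/- mice (SD, n = 4 each). The median log2 fold change of the 6 genes was -0.21, opposite in sign to the ratio of the sums of 1.12, since 4 of the 6 were negative. Without WT mouse 6 this median was -0.13, and without WT mouse 4 it was -0.28. Col4a1 and Col4a2 together were 117.7 ± 4.35 and 142.2 ± 9.19 CPM, while Col4a3 to Col4a6 together were 34.4 ± 4.41 and 28.4 ± 2.93 CPM. The Col4a3 to Col4a6 sums overlapped between the groups, from 28.8 to 39.1 CPM in WT and from 24.3 to 31.2 in Opa1+/- mice.

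A ratio of 2 chains within a mouse is free of library scaling. The ratio of Col4a1 to Col4a2 was 1.31 ± 0.074 in WT and 1.28 ± 0.041 in Opa1+/- mice (SD, n = 4 each), with an exact two-sided permutation p of 0.6. The ratio of Col4a3 to Col4a4 was 0.709, 0.688, 0.711 and 0.754 in WT mice 4, 5, 6 and 8, and 0.655, 0.580, 0.573 and 0.650 in Opa1+/- mice 2, 7, A and B. All Opa1+/- mice lay below all WT mice, and this was the only 1 of 13 chain ratios examined with no overlap. Its means were 0.715 ± 0.028 and 0.615 ± 0.044 (SD, n = 4 each), and the exact two-sided permutation p was 0.0286, the smallest that 4 against 4 mice allow, and 0.371 after Benjamini-Hochberg adjustment over the 13 ratios.

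Ratios across the networks were examined after the values had been seen and carry no test. Col4a3 relative to Col4a1 was 0.108 ± 0.013 in WT and 0.0678 ± 0.0043 in Opa1+/- mice. Col4a6 relative to Col4a1 was 0.0634 ± 0.0163 and 0.0385 ± 0.0054, and Col4a4 relative to Col4a1 was 0.151 ± 0.019 and 0.111 ± 0.0081. These 3 ratios did not overlap between the groups, while that of Col4a5 to Col4a1, 0.195 ± 0.034 and 0.139 ± 0.023, did. Col4a1 itself lay higher in every Opa1+/- mouse, so lower ratios to it were partly built in.

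Of the 50 marker genes of other cells that were tested, 1 had no overlap between the genotypes, an endothelial gene that lay higher in Opa1+/- mice. This share is near that of all genes tested, 1.98% with no overlap and higher and 2.33% lower. Cdh5, the cadherin of endothelial junctions, was at 53.5 to 61.5 CPM in WT and 62.5 to 70.1 in Opa1+/- mice, with no overlap, a log2 fold change of 0.20 ± 0.067 (SE), an edgeR p of 0.0149 and an adjusted p of 0.722. Without WT mouse 8 its p was 0.0546. The other 3 endothelial markers, Pecam1, Kdr and Cldn5, had log2 fold changes of 0.032, 0.094 and 0.030 with overlapping groups. The summed level of all 4 markers was 176.6 to 198.2 CPM in WT and 181.6 to 212.4 in Opa1+/- mice, and no marker was at 0. The part of endothelial cells in the Col4a1 and Col4a2 values was not tested. The cochlear epithelium and tectorial membrane markers summed to 214.7 to 334.6 CPM in WT and 277.5 to 336.7 in Opa1+/- mice. Of these 8 genes 2 had a positive log2 fold change, with a median of -0.048. The sum was shaped by Ceacam16, at 101.2 ± 27.4 CPM in WT and 133.2 ± 28.6 in Opa1+/- mice (SD, n = 4 each), with overlapping groups. The part of these markers in the Col4a3 to Col4a6 values was not tested either.

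Laminins, nidogens and proteoglycans share the basement membrane with type IV collagen. Of 12 such partner genes, none reached an unadjusted p of 0.05, against 3.51% higher and 3.22% lower among all genes tested. Their log2 fold changes ran from -0.38 (Papln) to 0.17 (Nid2), with a median of 0.021. Nid1, a linker of laminin and type IV collagen, had a log2 fold change of 0.025, and Hspg2, which encodes perlecan, one of 0.13, with overlapping groups for both.

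Type I collagen, the trimer of bone and ligament fibrils with 2 Col1a1 chains and 1 Col1a2 chain, varied widely between the Opa1+/- mice. Col1a1 was at 691.4, 685.7, 775.1 and 846.5 CPM in the WT mice and at 806.5, 582.2, 841.3 and 499.7 in the Opa1+/- mice. Opa1+/- mice 2 and A lay among the WT mice, and mice 7 and B lay below all of them. The log2 fold change was -0.14 ± 0.163 (SE) for Col1a1 and -0.15 ± 0.126 (SE) for Col1a2, with edgeR p of 0.425 and 0.257. Without mouse B the values were -0.015 for Col1a1 and -0.065 for Col1a2. They were also smaller without WT mouse 8 (-0.076 and -0.096) or Opa1+/- mouse 7 (-0.067 and -0.095). They were larger in size without Opa1+/- mouse A (-0.25 and -0.22) or Opa1+/- mouse 2 (-0.22 and -0.23). Summed type I was 1224 ± 112.8 CPM in WT and 1109 ± 245.2 in Opa1+/- mice (SD, n = 4 each). Bone markers, mostly Spp1, summed to 1999 to 2533 CPM in WT and 1844 to 2263 in Opa1+/- mice. Of these 10 genes 4 had a positive log2 fold change, with a median of -0.022, and their part in the type I values was not tested.

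The proportion of the 2 type I chains varied less between mice than their levels did. The ratio of Col1a1 to Col1a2 was 1.58 ± 0.073 in WT and 1.58 ± 0.115 in Opa1+/- mice (SD, n = 4 each), with an exact two-sided permutation p of 0.971. Over the 8 mice their log2 levels correlated with Pearson's r of 0.974 (permutation p 0.000124) and Spearman's rho of 0.976 (permutation p 0.000397), with adjusted p of 0.00161 and 0.00516 over 13 pairs, and r was 0.86 without Opa1+/- mice 7 and B. Both chains were read from the same libraries and share their depth and tissue makeup.

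The tectorial and cartilage chains overlapped between the genotypes in all 6 genes. Col2a1, the sole chain of type II fibrils, was at 57.5, 70.8, 79.5 and 67.4 CPM in the WT mice and at 64.2, 65.0, 84.9 and 52.5 in the Opa1+/- mice. Both ends of the range, mice A and B, were Opa1+/-, and the log2 fold change was -0.045 ± 0.144 (SE). Col11a2, which encodes a chain of the thin fibrils of the tectorial membrane and is a human deafness gene, was at 129.8 to 203.4 CPM in WT and 98.9 to 188.6 in Opa1+/- mice, with a log2 fold change of -0.10 ± 0.198 (SE).

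Col11a1, its partner chain, came closest to the threshold in this class. It was at 41.4, 52.5, 55.6 and 55.1 CPM in the WT mice and at 51.3, 43.8, 42.4 and 32.8 in the Opa1+/- mice. Opa1+/- mouse B was lowest and WT mouse 4 lay below 3 of the Opa1+/- mice. The log2 fold change was -0.26 ± 0.137 (SE), with an edgeR p of 0.0838. It had a p under 0.05 in 2 of 8 fits with 1 mouse left out, those without WT mouse 4 or Opa1+/- mouse 2, and without mouse B the log2 fold change was -0.16.

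Type IX molecules are trimers of Col9a1, Col9a2 and Col9a3 that sit on type II fibrils. Col9a2 (31.1 to 49.8 CPM in WT, 37.2 to 43.6 in Opa1+/- mice) and Col9a3 (18.4 to 29.8 CPM in WT, 18.8 to 24.8 in Opa1+/- mice) had log2 fold changes of 0.027 ± 0.128 and -0.080 ± 0.146 (SE). Col9a1 was at 10.1, 13.2, 14.6 and 9.94 CPM in the WT mice and at 10.5, 12.5, 9.10 and 6.51 in the Opa1+/- mice, with a log2 fold change of -0.30 ± 0.203 (SE) and overlapping groups. Without Opa1+/- mouse B this value was -0.16, and without WT mouse 6 it was -0.19. Without Opa1+/- mouse 7 it was -0.45. Col9a3 followed Col9a2 over the 8 mice with r of 0.885 (permutation p 0.00446, adjusted 0.00967) and rho of 0.833 (permutation p 0.0154, adjusted 0.0400), and r was 0.596 without WT mice 4 and 6. Col9a1 and Col9a2 had r of 0.37 (permutation p 0.357) and rho of 0.357 (permutation p 0.389), and r was -0.07 without WT mouse 6 and Opa1+/- mouse B, so no relation between these 2 chains of 1 molecule was detected.

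Col11a1 and Col11a2 correlated with r of 0.877 (permutation p 0.00429, adjusted 0.00967) and rho of 0.786 (permutation p 0.0279, adjusted 0.0519), and r was 0.57 without WT mouse 6 and Opa1+/- mouse B. Col11a1 and Col2a1 had r of 0.58 (permutation p 0.131) and rho of 0.595 (permutation p 0.132), and r was -0.0066 without the same 2 mice, so that relation rests on them. Summed over the class, the tectorial and cartilage chains were 363.1 ± 59.1 CPM in WT and 338.1 ± 62.8 in Opa1+/- mice, and mouse B was lowest in 4 of the 6 genes. The cartilage markers (8 genes, of which 7 were listed and 5 tested, all tested ones without an unadjusted p under 0.05) summed to 175.6 to 217.1 CPM in WT and 178.8 to 210.4 in Opa1+/- mice.

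Of the 30 other collagens, 29 were tested and 1, Col8a1, had an unadjusted p under 0.05, in the lower direction, a share near the 3.22% of all genes tested. Col8a1 encodes a short network-forming chain of vessel walls and of the membrane behind the cornea. It was at 68.2, 89.5, 84.2 and 78.6 CPM in the WT mice and at 69.9, 72.5, 61.7 and 67.7 in the Opa1+/- mice. WT mouse 4 lay among the Opa1+/- mice and the other 3 WT mice above all of them. Its log2 fold change was -0.24 ± 0.089 (SE), with an edgeR p of 0.0254 and an adjusted p of 0.722, and the p was under 0.05 in 5 of 8 fits with 1 mouse left out, not in those without WT mouse 5, WT mouse 6 or Opa1+/- mouse A. Its partner Col8a2 had a log2 fold change of -0.032 ± 0.134 (SE), which changed sign without WT mouse 6 (0.071) or Opa1+/- mouse B (0.011).

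The fibrillar chains of soft tissue also overlapped. Col3a1, which joins type I in elastic tissues, was at 122.0, 139.7, 115.8 and 131.1 CPM in the WT mice and at 157.8, 107.3, 181.4 and 103.0 in the Opa1+/- mice. The Opa1+/- mice lay on both sides of the WT range, and the log2 fold change was 0.11 ± 0.175 (SE). Col5a1 and Col5a2, regulators of fibril thickness, had log2 fold changes of 0.060 ± 0.131 and -0.017 ± 0.121 (SE), and their levels correlated with r of 0.882 (permutation p 0.00441, adjusted 0.00967) and rho of 0.905 (permutation p 0.00456, adjusted 0.0148), with r of 0.667 without Opa1+/- mice 2 and B. The 5 fibroblast markers summed to 1143 to 1269 CPM in WT and 1125 to 1308 in Opa1+/- mice, and their part in these values was not tested.

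Type VI collagen forms beaded filaments next to basement membranes. Col6a1 was at 55.6, 61.1, 65.7 and 60.9 CPM in the WT mice and at 67.2, 68.1, 68.6 and 54.8 in the Opa1+/- mice. The Opa1+/- mice other than B lay above all WT mice, and mouse B lay below them. Over all 8 mice the log2 fold changes were 0.089 ± 0.085 for Col6a1, 0.13 ± 0.095 for Col6a2 and 0.14 ± 0.138 for Col6a3 (SE), with edgeR p of 0.319, 0.204 and 0.324. They were 0.16, 0.21 and 0.25 without mouse B, and with another mouse left out they went down to 0.049 for Col6a1 and 0.071 for Col6a3 (without WT mouse 4) and to 0.085 for Col6a2 (without Opa1+/- mouse 7).

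Without mouse B the number of collagens with an unadjusted p under 0.05 in the higher direction was 6, namely Col4a2, Col4a1, Col14a1, Col6a2, Col5a3 and Col6a1, against 2.39% of all genes in that fit. The smallest adjusted p over the collagens was then 0.876. Mouse B was lowest in 24 of the 44 collagens, and leaving it out raises the Opa1+/- means of those genes by construction. Col6a1 and Col6a2, near each other on chromosome 10, correlated with r of 0.939 (permutation p 0.00141, adjusted 0.00613) and rho of 0.929 (permutation p 0.00223, adjusted 0.00967), and r was 0.92 without WT mouse 4 and Opa1+/- mouse B. For Col6a3 and Col6a1, r was 0.754 (permutation p 0.0401, adjusted 0.0522) with rho of 0.643 (permutation p 0.0962, adjusted 0.139), and it was 0.196 without the same 2 mice.

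In the type IV pairs, Col4a3 and Col4a4 correlated with r of 0.879 (permutation p 0.00627, adjusted 0.0117) and rho of 0.786 (permutation p 0.0279, adjusted 0.0519), and r was 0.835 without WT mouse 6 and Opa1+/- mouse 7. Col4a5 and Col4a6 had r of 0.804 (permutation p 0.0248, adjusted 0.0403) and rho of 0.571 (permutation p 0.151, adjusted 0.179), with r of 0.755 without WT mouse 6 and Opa1+/- mouse B. Col4a6 did not overlap between the genotypes and Col4a3 nearly so, thus both of these r include the genotype difference. Within WT and Opa1+/- mice r was 0.957 and 0.817 for Col4a3 and Col4a4. For Col4a5 and Col4a6 it was 0.635 and 0.942, over 4 mice each and without a test. Col4a1 and Col4a2 fell into separate clusters by genotype, with 4 mice in each, so no r over the 8 mice is given. Within the genotypes their r was 0.748 (WT) and 0.889 (Opa1+/-), over 4 mice each and without a test. Of the 2 remaining pairs, Col3a1 and Col1a1 had r of 0.751 (permutation p 0.0307, adjusted 0.0443) and rho of 0.714 (permutation p 0.0576, adjusted 0.0936), with r of 0.717 without Opa1+/- mice 2 and A. Col2a1 and Col1a1 had r of 0.696 (permutation p 0.0544, adjusted 0.0643) and rho of 0.524 (permutation p 0.197, adjusted 0.213), with r of 0.253 without Opa1+/- mice A and B. Within the genotypes, over 4 mice each and without a test, r differed between WT and Opa1+/- mice in both directions. It was lower in WT for Col3a1 and Col1a1 (-0.18 and 0.97), Col5a1 and Col5a2 (0.22 and 0.98), Col2a1 and Col1a1 (0.35 and 0.81), and Col6a3 and Col6a1 (0.33 and 0.92), and higher in WT for Col9a1 and Col9a2 (0.80 and 0.22) and Col11a1 and Col2a1 (0.88 and 0.48).

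**Figure D5:**
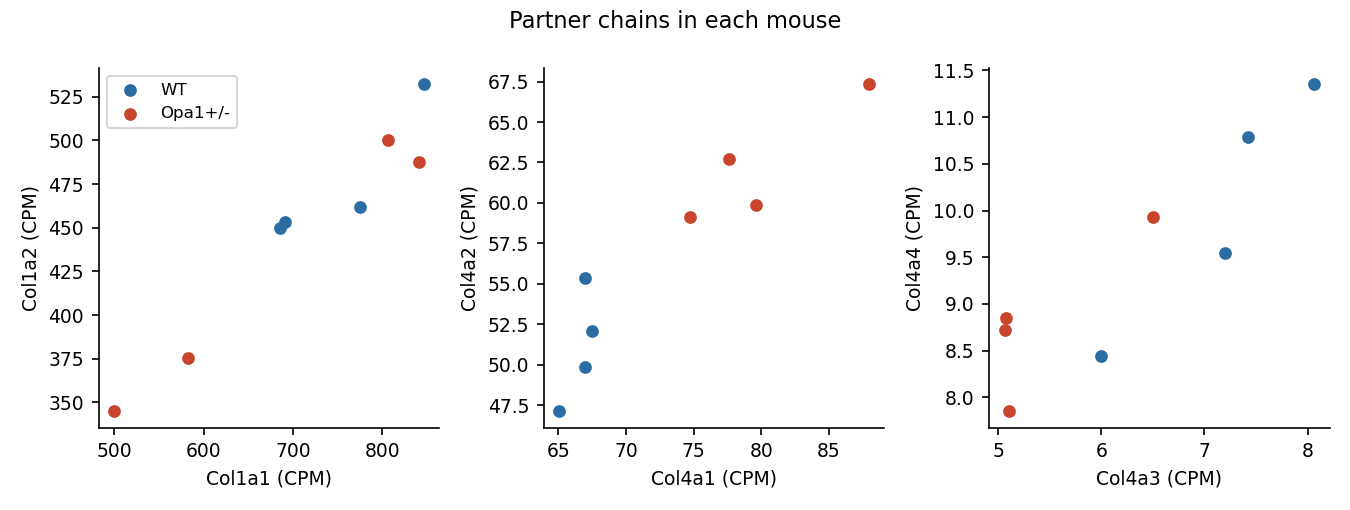
Each point is 1 mouse, placed by the CPM of the 2 chains of a pair, WT in blue and Opa1+/- in red. Col1a1 and Col1a2 rank the mice alike with both genotypes mixed, Col4a1 and Col4a2 form a cluster per genotype, and for Col4a3 and Col4a4 each Opa1+/- mouse has a lower ratio than every WT mouse.

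Among the scarce collagens, WT mouse 8 carried high values of chains of hypertrophic cartilage and epithelium. Col10a1 was at 0.571, 0.488, 0.239 and 1.86 CPM in the WT mice and at 0.355, 0.652, 0.371 and 0.383 in the Opa1+/- mice, on 4 to 38 counts. Its log2 fold change of -0.84 ± 0.587 (SE), with an edgeR p of 0.184, rested on WT mouse 8. Without this mouse the means were 0.433 CPM in WT and 0.440 in Opa1+/- mice, and the gene was under the minimum count and not tested. Col17a1, a chain of epithelial anchoring complexes, was at 1.03, 2.10, 1.37 and 4.55 CPM in the WT mice and at 1.12, 1.604, 1.36 and 1.02 in the Opa1+/- mice, with a log2 fold change of -0.83 ± 0.439 (SE). Without WT mouse 8 it was -0.24 ± 0.297 (SE). Col10a1 and Col17a1 varied most over the 8 mice, with coefficients of variation of 84.6% and 66.6%, against 7.24% for Col12a1, the steadiest collagen. Col10a1, Col18a1 and Col9a3 overlap another protein-coding gene (Nt5dc1, Slc19a1 and Tcfl5), and their reads could be shared with it.

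The medians of the log2 fold change were -0.14 for type I, -0.090 for the tectorial and cartilage chains, -0.21 for type IV and -0.017 for the other collagens, against 0.000395 for all genes tested. Without mouse B they were -0.040 for type I, 0.020 for the tectorial and cartilage chains and 0.082 for the other collagens. The last 2 thus changed sign without the mouse that was lowest in 24 of the 44 genes. With another mouse left out the medians went down to -0.23 for type I (Opa1+/- mouse A) and -0.19 for the tectorial and cartilage chains (WT mouse 4). That of the other collagens went down to -0.095 (Opa1+/- mouse 2). Summed over all 44 genes, collagens were 2551 ± 167.3 CPM in WT and 2442 ± 421.5 in Opa1+/- mice (SD, n = 4 each). Mouse B had the lowest sum, 1922 CPM, and mouse 2 the highest, 2814 CPM, so the genotypes overlapped from end to end.

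The enzymes and partners that build, anchor and remove collagen were examined as 77 genes, of which 76 were tested. None passed an adjusted p of 0.05 by edgeR or DESeq2, and at an unadjusted p under 0.05 none lay higher and 1 lower, against 3.51% and 3.22% of all genes tested. That gene was Fkbp14, a chaperone of the endoplasmic reticulum for procollagen, at 20.6 ± 1.09 CPM in WT and 18.5 ± 0.609 in Opa1+/- mice (SD, n = 4 each), with a log2 fold change of -0.16 ± 0.067 (SE), an edgeR p of 0.0409 and an adjusted p of 0.728. Its groups did not overlap, its DESeq2 p was 0.075, and its edgeR p was under 0.05 in only 1 of 8 fits with 1 mouse left out, that without WT mouse 4.

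The pathway lists had medians between -0.086 and 0.071. The median log2 fold change was 0.013 over the 20 genes of chain hydroxylation and folding, 0.019 over the 7 tested genes of propeptide removal, 0.071 over the 6 crosslinking genes, 0.013 over the 12 genes of degradation and its inhibitors, -0.086 over the 9 collagen receptors and 0.043 over the 10 proteoglycans and regulators of fibrils. Summed levels overlapped between the genotypes in all of these lists.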

How the data were processed

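The authors extracted cochlear RNA with TRI Reagent and NucleoSpin columns per the study's methods, where the labels give TRI Reagent or an RNeasy microkit without a kit per sample. They prepared CORALL libraries, sequenced pairs of 80 nucleotides, mapped them to GRCm38 (mm10) with STAR and applied unique molecular identifiers to limit amplification bias. FastQC is also in the submitters' processing notes. The deposited values are raw counts per gene symbol. The study's methods name the CORALL Data Analysis Pipeline, but the counting program in it and its use of strand are not given in the sources used here. The 15 entries with a number in place of a symbol, 0.112 to 0.124% of counts, were left out.

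Genes with a mean over 10 after DESeq2 size factors were tested with edgeR 4.0.16 (R 4.3.3, quasi-likelihood, TMM, no covariates, adjusted p under 0.05 over all genes). This mean and threshold follow the study's methods. Levels are CPM, also divided by the union of exons in GENCODE vM21, where all 44 symbols matched. Chain ratios used exact permutation over 70 arrangements, and correlations used log2 CPM and exact permutations of 8 mice (scipy 1.17.1). Standard errors are the log2 fold change over the root of the F statistic. The edgeR p-values set the difference between the genotypes against the spread between these mice, with no term for sex or litter. The closing section gives the alternatives: DESeq2 size factors, total counts, DESeq2 1.42.0, limma 3.58.1 voom, other filters and mice left out. The fits were tested on simulated data.

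Genes were named by rule: the defining chains, the 5 highest per kb, any member past an adjusted p of 0.05, up to 8 more by lowest unadjusted p under 0.05, and up to 3 such genes of each list. Some genes were named after their values were seen. They were Col17a1, Col12a1, Col8a2, Col26a1, Nid1, Nid2, Papln, Hspg2, Pecam1, Kdr, Cldn5, Spp1 and Ceacam16. The genes with a p under 0.05 only without mouse B, and genes that overlap others, were also named in this way. The members and lists were chosen with earlier results of these data known. Figures used matplotlib 3.10.9 with Python 3.11.15.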

Additional observations from a re-analysis of the deposited data

Results flagged for a closer look

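In 5 of 52 groups of 4 mice, from 22 named collagens and 4 class sums in each genotype, 1 mouse lay far from the other 3, where chance gives about 1 in 20 groups, or 2.6. Col1a2 was at 532.2 CPM in WT mouse 8, where the rest of that group lay between 450.1 and 461.8 CPM. Col4a3 was at 6.50 CPM in Opa1+/- mouse 2 against 5.06 to 5.11 CPM in the other Opa1+/- mice. Opa1+/- mouse B was far below the rest of its group in Col4a6, at 2.49 CPM against 3.22 to 3.31 CPM, and in Col6a1, at 54.8 CPM against 67.2 to 68.6 CPM. Col10a1 was at 0.652 CPM in Opa1+/- mouse 7 against 0.355 to 0.383 CPM in the others of its group.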

How the results depend on the processing

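No collagen passed the adjusted threshold under any alternative run, and no pathway gene did under those run for them, the DESeq2 Wald test and 1 mouse left out. Col4a1 and Col4a2 lay higher with an unadjusted p under 0.05 under every one. With Opa1+/- mice A and B left out together, 5 collagens lay higher and 0 lower at that p, and Col11a2 (0.076) and Col5a2 (0.025) changed sign; under limma voom so did Col2a1 (0.00015). The DESeq2 Wald test left 0 pathway genes lower. With 1 mouse left out, collagens higher numbered 2 to 6 (6 without Opa1+/- B) and lower 1 to 5 (1 without WT 6 or Opa1+/- A, 5 without WT 4), pathway genes higher 0 to 2 and lower 0 to 3. The log2 fold change then ran from -0.18 to 0.049 for Col2a1, -0.066 to 0.16 for Col9a2, -0.18 to 0.049 for Col9a3, -0.21 to 0.065 for Col11a2, -0.049 to 0.22 for Col3a1, -0.041 to 0.17 for Col5a1 and -0.095 to 0.074 for Col5a2. The cause of these changes was not tested. The Col4a3 to Col4a4 ratio stayed between 0.841 and 0.879 of WT, where 3 against 4 mice allow no p below 0.0571. Of 22 named genes, 21 were tested under every alternative and 14 of these kept their direction throughout. Col10a1 was not tested without WT mouse 8 or with a CPM of at least 1 required. The sample titles give no litter, so littermates could not be paired and litter was not modelled. Depth limits Col6a4 and Col10a1.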
